A study of Homo sapiens with 7 samples.

Results

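The genes described here encode 38 proteins that write, read or maintain silent chromatin. They were chosen by name and not by their measured values, though with earlier results of these data known. They comprise 6 H3K9 methylation genes, 2 H4K20 methyltransferases, 4 genes for HP1 proteins and their corepressor, 7 DNA methylation genes, 6 genes of Polycomb repressive complex 2 (PRC2), 8 for deacetylases and the NuRD complex, 2 for the H3.3 chaperone and 3 for architectural proteins. All 38 had a probe set of their own on the array and all 38 passed the filter on dim signals, out of 12726 genes that did so. Each gene was read by its brightest probe set, and none of the 38 was below a signal of 100 on every array.

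The study asked which genes change when fibroblasts make progerin or extra prelamin A, and which of them move back under treatments that act on lamin farnesylation or cleavage. Expression was measured on 7 arrays, 1 for each RNA sample, with all cells taken at passage 10 and labelled as 1 strain of human dermal fibroblasts. The groups were prelamin A with FTI, prelamin A with ZMPSTE24, prelamin A alone, progerin with FTI, progerin alone (1 array each) and control (2 arrays). Progerin is the truncated lamin A of Hutchinson-Gilford progeria, prelamin A is the uncleaved precursor of lamin A, and ZMPSTE24 is the protease that removes its farnesylated end. FTI, the farnesyltransferase inhibitor L-744832, was given at 10 nM for 48 h. Progerin and prelamin A were introduced with lentiviral vectors under a CMV promoter, so the levels are those of overexpression. The study describes its comparison as one with wild-type cells, and the control of a separate growth assay carried a GFP lentivirus. For the control arrays themselves the sources used here do not give a vector, nor do they give which untreated arrays had DMSO. The array used as prelamin A + FTI has a title that mentions the inhibitor only, whereas its source and treatment labels give prelamin A too. With 1 array for each lamin condition there was no replicate check of any single condition. The only replicated group was the control, and no source says that the 2 control arrays came from separate cultures. The p-values of comparisons of single arrays thus measure the spread between the controls, which may be technical.

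Heterochromatin is the compact, mostly silent part of the genome, and in fibroblasts much of it lies against the nuclear lamina that lamins build. SUV39H and SETDB enzymes methylate histone H3 at lysine 9, HP1 proteins bind that mark, and KMT5B and KMT5C then methylate histone H4 at lysine 20. DNMT1 copies DNA methylation after replication with the help of UHRF1 and HELLS, and PRC2 places the H3K27 methylation of Polycomb silencing. Loss of some of these marks and proteins is a known trait of progeria cells.

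The 7 arrays were scaled to a common level, and the median signal over all probe sets was 64.9 to 77.0. The ratio of 3' to 5' signal of β-actin was 1.26 to 1.62 on the 3 prelamin A-line arrays, highest in prelamin A cells, 1.12 and 1.17 in the progerin + FTI and progerin cells, and 1.24 and 1.06 in the controls. All 13 fibroblast markers were well above the filter on every array. Of the markers of other cells, 1 of 5 keratinocyte, 2 of 5 endothelial, 2 of 3 leukocyte and 1 of 4 melanocyte genes passed the filter. The summed signal of the endothelial genes was 363 to 503 on the transduced arrays and 270.0 and 192 on the controls, and that of the leukocyte genes was 281 to 641 on the transduced arrays and 240.0 and 134 on the controls. The keratinocyte sum, nearly all from KRT10, was 5075 to 6580 on the transduced arrays and 10765 and 7595 on the controls. Of the 4 neuronal filament and related genes chosen for embryonic kidney packaging cells, 3 passed, with a sum of 473 to 898 on the transduced arrays and 118 and 95.5 on the controls. TEK for endothelium read 167 to 344 on the transduced arrays and 23.5 and 2.19 on the controls. CD14 for leukocytes read 198 to 575 on the transduced arrays and 87.2 and 55.3 on the controls. INA, of the packaging cell genes, read 270 to 545 on the transduced arrays and 12.8 and 5.20 on the controls. No listed marker was at exactly 0, but CDH5 and KDR for endothelium and PTPRC for leukocytes stayed below 100 everywhere, as did KRT5 and KRT14 for keratinocytes. These sums differed between the transduced and the control arrays, as did some members below, and their part in those results was not tested.

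The 38 genes varied over the arrays about as much as genes in general. Over the 7 arrays, the distance between the highest and the lowest value of a member on the log2(signal + 16) scale had a median of 0.79, against 0.85 over all genes tested, and 12 members (31.6%) spanned more than 2-fold, against 39.8% of all genes. The widest were KMT5C at 2.29, HMGA1 at 2.09, UHRF1 at 1.90, DAXX at 1.53 and HELLS at 1.40. The steadiest were HDAC3 at 0.26, EED at 0.34, HDAC1 at 0.35, RBBP4 at 0.36 and EHMT1 at 0.42. The 2 controls were themselves over 2-fold apart in 1 member, SIRT6, a deacetylase of H3K9, which read 438 in control 1 and 201 in control 2.

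**Figure D1:**
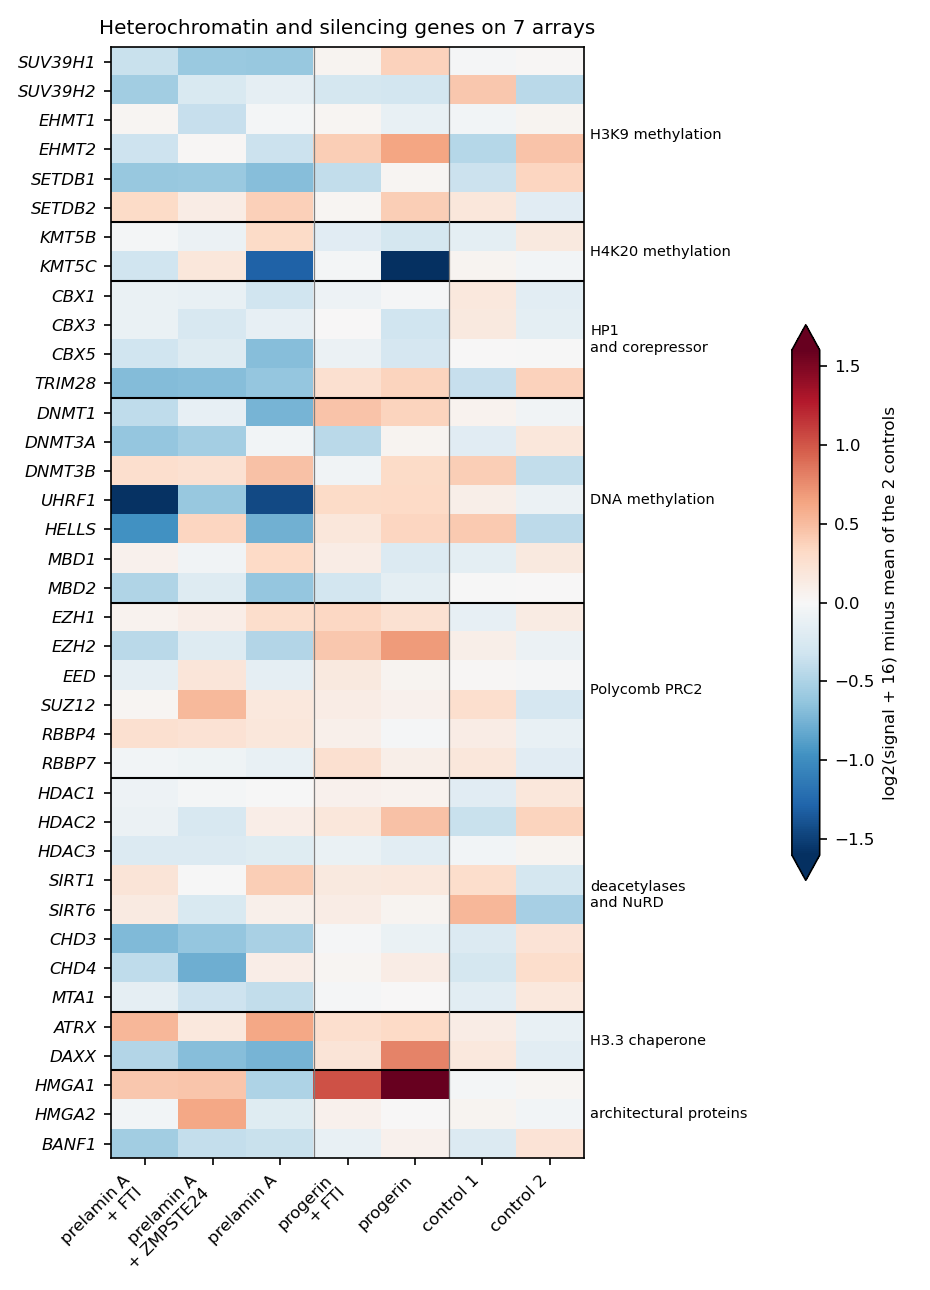
Rows are the 38 genes by role, columns the 7 arrays, and colour is log2(signal + 16) minus the mean of the 2 controls (scale ends at -1.6 and 1.6). The deepest blue cells are KMT5C in prelamin A and progerin cells and UHRF1 in prelamin A + FTI and prelamin A cells, and the deepest red is HMGA1 in progerin cells, 1.59 above the controls.

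The prelamin A line and the progerin line were compared next. Of the 38 members, 17 (44.7%) were lower on all 3 prelamin A-line arrays than on both progerin-line arrays, against 24.0% of all genes tested, and 2 (5.26%), KMT5B and RBBP4, were higher on all 3, against 21.4%. The 17 were SUV39H1, EHMT2, SETDB1, CBX1, TRIM28, DNMT1, UHRF1, EZH2, RBBP7, HDAC1, HDAC2, HDAC3, CHD3, MTA1, DAXX, HMGA1 and BANF1. These counts are descriptions with no test. Under alternatives chosen after seeing the data, the 17 became 16 with quantile normalization (all genes 22.9%), 14 with median centring (18.9%) and 20 with the mean of probe sets (25.04%). Of 45 other probe sets of 21 members, 25 had the sign of the used one between the prelamin A and progerin arrays. Among the 17, dimmer probe sets of CHD3 (0.37), MTA1 (0.34) and HDAC2 (0.20) gave the opposite sign. For RBBP4, the second brightest probe set kept the sign (0.21) and the dimmer ones gave -0.54 to -0.30. In the direct comparison of the prelamin A array with the progerin array, with the spread taken from the controls, 5 members were called, all lower in prelamin A cells. Calls needed both a change of more than 2-fold and p below 0.05 in limma before adjustment, and 7.05% of all genes met this (3.46% lower). The median difference was -0.19 over the 38 members and -0.02 over all genes, with 25 members below 0 and 13 above (6539 of 12726 genes were below 0). No member reached an adjusted p of 0.05 in limma, and the 5 called had adjusted p-values of 0.618 to 0.671.

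UHRF1, which brings DNMT1 to newly copied DNA, showed the line difference most plainly among the DNA methylation genes. It read 479 in prelamin A + FTI cells, 959 in prelamin A + ZMPSTE24 cells and 529 in prelamin A cells, against 1812 in progerin + FTI cells and 1832 in progerin cells, and 1563 and 1368 in the controls. All prelamin A-line arrays were below both controls and both progerin-line arrays were above them. The prelamin A array was lower than the progerin array by 1.76 on the log2 scale (standard error 0.38, limma adjusted p = 0.618) and lower than the controls by 1.44 (standard error 0.33, limma adjusted p = 0.234). DNMT1, the maintenance DNA methyltransferase, read 1197, 1453 and 947 in prelamin A + FTI, prelamin A + ZMPSTE24 and prelamin A cells, against 2196 and 2047 in progerin + FTI and progerin cells and 1659 and 1532 in the controls. As for UHRF1, the controls lay between the 2 lines, with a difference of -1.10 between the prelamin A and progerin arrays (standard error 0.37, limma adjusted p = 0.671). HELLS, the helicase needed for DNA methylation of repeats, read 152, 402 and 178 on the 3 prelamin A-line arrays in the same sequence, against 355 and 403 on the progerin-line arrays and 425 and 229 on the controls. Its 2 low arrays were prelamin A + FTI and prelamin A, while the array with ZMPSTE24 was level with progerin, and at -1.11 (standard error 0.54) between prelamin A and progerin it was not called.

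EZH2, the methyltransferase subunit of PRC2 in dividing cells, read 225, 264 and 218 in prelamin A + FTI, prelamin A + ZMPSTE24 and prelamin A cells. It read 422 and 504 in progerin + FTI and progerin cells, and 329 and 288 in the controls. As with UHRF1, the controls lay between the lines, and the prelamin A array was lower than the progerin array by 1.15 (standard error 0.38, limma adjusted p = 0.669). DAXX, which loads histone H3.3 into heterochromatin together with ATRX, read 472, 404 and 389 on those 3 prelamin A-line arrays, against 762 and 1153 on the progerin + FTI and progerin arrays and 743 and 587 on the controls. The difference between prelamin A and progerin was -1.53 (standard error 0.40, limma adjusted p = 0.634), but the probe set used has the suffix for possible cross-hybridisation. A second, somewhat dimmer probe set of DAXX showed only -0.16, and the mean of both was not called.

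**Figure D2:**
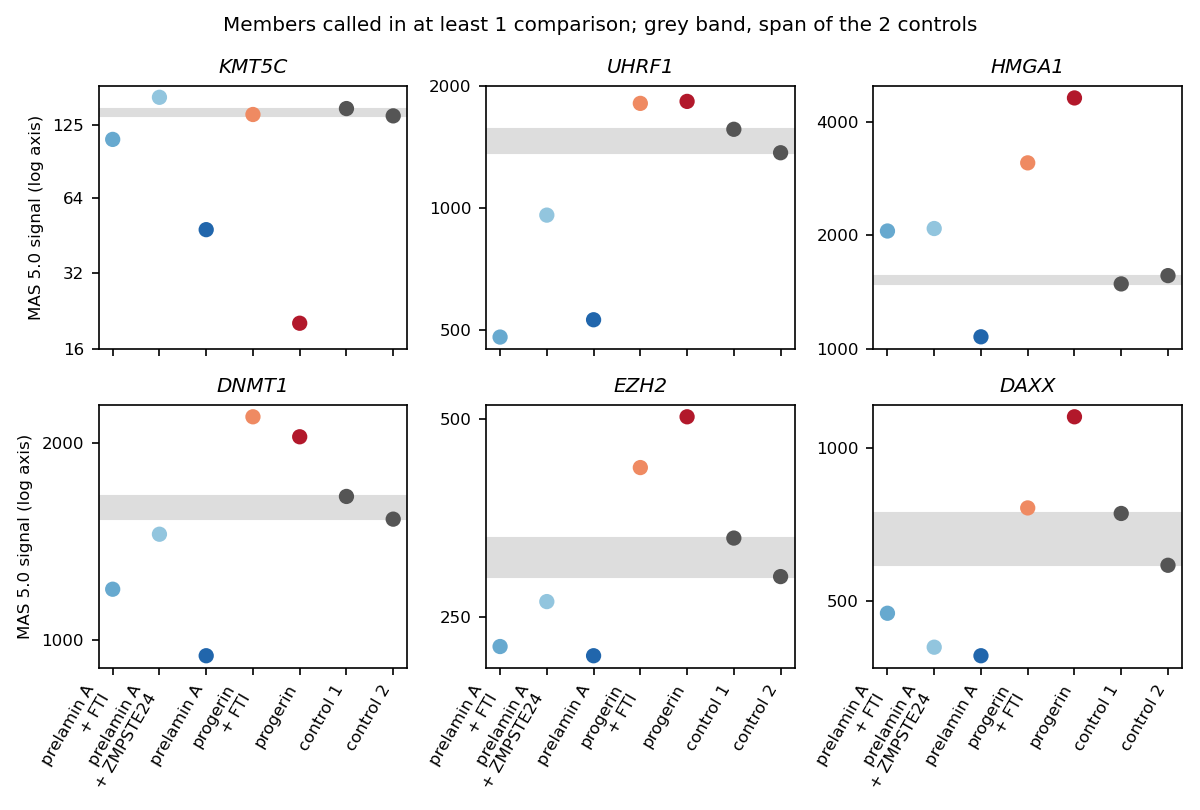
The 6 panels give the MAS 5.0 signal (log axis) of each member called in at least 1 comparison, 1 point per array, with the span of the 2 controls in grey. KMT5C is low in prelamin A and progerin cells, at 47.9 and 20.2, while UHRF1, DNMT1, EZH2 and DAXX are below the controls on all 3 prelamin A-line arrays and above them on both progerin-line arrays.

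The sequences around the starts of 4 of these genes are shown. They are the DNA methylation and PRC2 genes with the lowest difference between prelamin A and progerin cells. Each holds there 1 or more of a set of short words, not the same word in all 4. The 4 were picked by that difference and within those groups, so their sharing of such words is not a test. The window runs from 200 bases before the annotated start to 20 after it (RefSeq, GRCh38.p14, gene strand). Capitals mark TTTCCCGC, TTTCGCGC, TTTGCCGC or TTTGGCGC on either strand, the words bound by E2F factors, the regulators of replication genes.
UHRF1, chr19:4909301-4909520, plus strand: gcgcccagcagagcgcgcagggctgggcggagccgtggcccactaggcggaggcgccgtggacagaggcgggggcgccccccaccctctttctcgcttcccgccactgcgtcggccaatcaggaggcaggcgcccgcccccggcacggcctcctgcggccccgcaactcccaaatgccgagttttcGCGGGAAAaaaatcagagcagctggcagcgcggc
DNMT1, chr19:10194934-10195153, minus strand: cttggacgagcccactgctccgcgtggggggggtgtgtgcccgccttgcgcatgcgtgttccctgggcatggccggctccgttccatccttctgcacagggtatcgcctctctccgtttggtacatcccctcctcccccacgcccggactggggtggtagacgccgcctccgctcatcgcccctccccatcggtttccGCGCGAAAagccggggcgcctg
HELLS, chr10:94545588-94545807, plus strand: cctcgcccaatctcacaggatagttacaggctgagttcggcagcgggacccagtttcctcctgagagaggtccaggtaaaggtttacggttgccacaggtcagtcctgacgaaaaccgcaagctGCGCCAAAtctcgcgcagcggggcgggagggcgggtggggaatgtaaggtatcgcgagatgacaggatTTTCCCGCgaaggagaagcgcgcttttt
EZH2, chr7:148884272-148884491, minus strand: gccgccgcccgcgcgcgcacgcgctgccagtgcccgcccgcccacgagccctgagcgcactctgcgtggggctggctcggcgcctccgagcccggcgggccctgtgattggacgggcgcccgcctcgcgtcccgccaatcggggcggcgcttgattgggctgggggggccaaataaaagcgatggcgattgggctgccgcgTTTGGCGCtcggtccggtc
UHRF1 and EZH2 each have another annotated window without such a word. Of 35116 promoter windows of all annotated genes, not only of those tested, 2.51% held such a word. Among the 52 windows of the 34 members with one in the table, 8 (15.4%) did, in the 7 genes CBX3, DNMT1, EZH1, EZH2, HELLS, SUZ12 and UHRF1. CBX3, EZH1 and SUZ12, which hold the word as well, were not called between the lines. HMGA1, the member with the largest difference between the prelamin A and progerin arrays (-2.09), held no such word in either window. SUV39H1, EHMT2 and SETDB1, also lower on the prelamin A-line arrays than on the progerin-line arrays, held none. TRIM28, ATRX, DAXX and HMGA2 had no window to search. A matching word is a description of the letters, not a binding site.

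Genes of replication and mitosis, which E2F factors are known to drive, also had a lower median in the prelamin A line. The median of 25 such genes relative to the control mean was -0.29, -0.25 and -0.58 in prelamin A + FTI, prelamin A + ZMPSTE24 and prelamin A cells, 0.11 and 0.28 in progerin + FTI and progerin cells, and 0.18 and -0.18 in the controls. Between prelamin A and progerin 24 of the 25 were below 0 (6539 of all 12726 genes), with a median of -0.84. Not every gene followed the median across the line. CCNB1, CCNB2, AURKA and CENPF read higher in prelamin A + FTI cells than on both progerin-line arrays, and AURKA in prelamin A + ZMPSTE24 cells too. CCNA2 did so in prelamin A + FTI and in prelamin A cells. Of the 25, 6 were called lower (all genes 3.46%), among them CDC45, a part of the replicative helicase, at -1.72, from a dim reading of 36.0 in prelamin A and 155 in progerin cells, and MCM5, another subunit, at -1.58. The prelamin A line also had the higher summed signal of the melanocyte genes, at 349, 325 and 395 in prelamin A + FTI, prelamin A + ZMPSTE24 and prelamin A cells, 234 and 213 in progerin + FTI and progerin cells, and 205 and 189 in the controls, in which MITF alone passed the filter. E2F activity was not measured. Whether it, the melanocyte sum, the β-actin ratio or the share of dividing cells accounts for any part of the line difference was not tested. In whole cultures, fewer cells expressing a gene and less RNA per cell cannot be told apart.

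**Figure D3:**
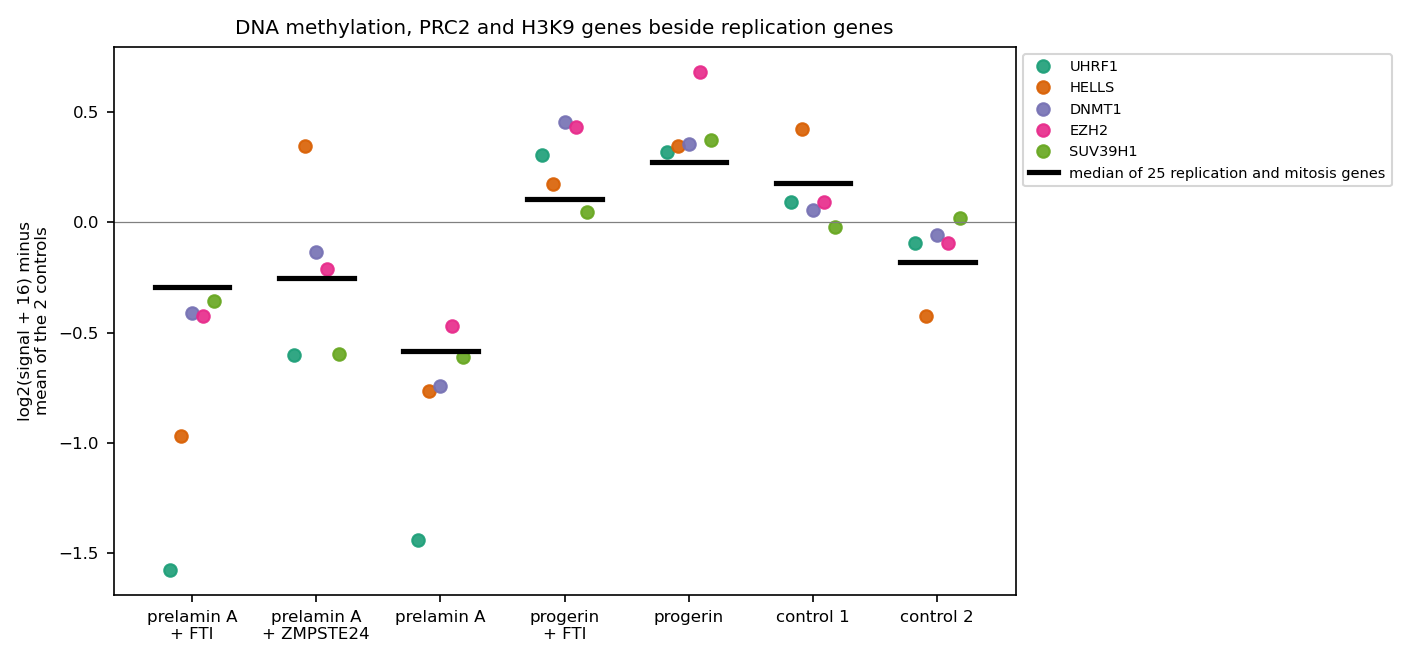
Points give UHRF1, HELLS, DNMT1, EZH2 and SUV39H1 on each array as log2(signal + 16) minus the mean of the 2 controls, and the black bars give the median of the 25 replication and mitosis genes. Bars and most points lie below 0 on the 3 prelamin A-line arrays (bars at -0.29, -0.25 and -0.58) and above 0 on both progerin-line arrays (0.11 and 0.28), with HELLS above 0 in prelamin A + ZMPSTE24 cells.

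**Figure D4:**
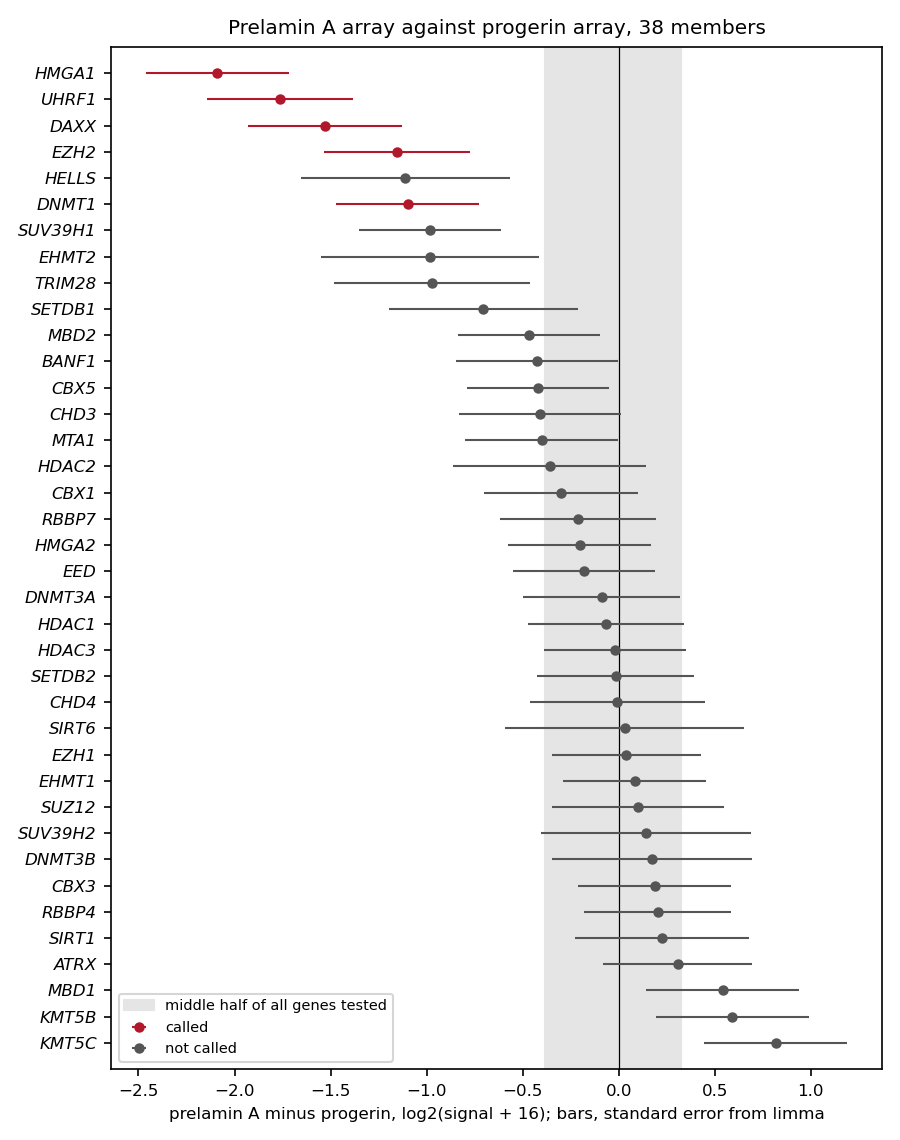
Each point is the difference between the prelamin A array and the progerin array for 1 of the 38 members on the log2(signal + 16) scale, the bar is its standard error in limma, and the grey band runs between the quartiles of all genes tested. The 5 called members (red) lie between -2.09 and -1.10, and the 2 highest, KMT5C and KMT5B, were not called.

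HMGA1 encodes an architectural protein that bends AT-rich DNA and takes part in senescence-associated heterochromatin. It had the largest difference of any member between the untreated prelamin A and progerin arrays. Between the FTI arrays the differences of UHRF1, HELLS, TRIM28, DNMT1, EZH2, EHMT2, CHD3 and DAXX were larger than that of HMGA1. HMGA1 read 2054 in prelamin A + FTI cells, 2086 in prelamin A + ZMPSTE24 cells and 1076 in prelamin A cells. It read 3115 in progerin + FTI cells and 4630.4 in progerin cells, and 1487 and 1564 in the controls. Both progerin-line arrays were the highest, prelamin A alone was the lowest, and both treated prelamin A arrays were above the controls. The prelamin A array was lower than the progerin array by 2.09 (standard error 0.37, limma adjusted p = 0.618), and the progerin array was higher than the controls by 1.59 (standard error 0.32, limma adjusted p = 0.416). A second HMGA1 probe set gave differences of the same sign, -1.57 and 0.61. With FTI the difference from the untreated array was 0.92 in prelamin A cells and -0.57 in progerin cells, neither of them called. The distance between the FTI effects, 1.49 (standard error 0.52), was the only 1 called among the 38, against 1.84% of all genes, and its limma adjusted p was 1.00. On the second, much dimmer HMGA1 probe set the differences with FTI were 1.34 in prelamin A cells and -0.07 in progerin cells. HMGA2, the other member of that family, read 983, 1568 and 887 in prelamin A + FTI, prelamin A + ZMPSTE24 and prelamin A cells, 1069.8 and 1024 in progerin + FTI and progerin cells, and 1051 and 985 in the controls, so that only the ZMPSTE24 array stood apart. BANF1, which tethers DNA to the lamina and whose recessive mutation causes another progeroid syndrome, read 3203 to 3664 on the prelamin A-line arrays, 4335 and 4926 on the progerin-line arrays, and 4051 and 5483 on the controls.

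KMT5C was the only member called lower than control in both untreated lamin conditions, and it read near the controls on every treated array. It encodes the enzyme that, downstream of HP1, makes the trimethylated form of H4K20 at pericentric heterochromatin. It read 109.8 in prelamin A + FTI cells, 162 in prelamin A + ZMPSTE24 cells and 47.9 in prelamin A cells, against 138 in progerin + FTI cells and 20.2 in progerin cells, and 146 and 136 in the controls. Prelamin A and progerin cells alone were below a signal of 100, and the 3 treated arrays lay between 109.8 and 162. Against the controls the difference was -1.30 in prelamin A cells (standard error 0.32, limma adjusted p = 0.257) and -2.11 in progerin cells (standard error 0.32, limma adjusted p = 0.313), 2 comparisons that share their controls. Against the untreated array of the same line it was 0.98 with FTI and 1.48 with ZMPSTE24 in prelamin A cells (standard error 0.37 each) and 2.09 with FTI in progerin cells (standard error 0.37). The treatment comparisons reuse the same untreated arrays as the comparisons with control, so a single low reading enters both. The share of all genes low in both untreated lamin conditions and near the controls on the treated arrays was not counted. KMT5C is dim and rests on 1 kept probe set, and its size depends on the pseudocount. Against the controls in progerin cells it was -2.74 with a pseudocount of 1 and -1.28 with 64. The call in prelamin A cells was lost with 64 (-0.87) and with an intensity trend (limma unadjusted p = 0.0578). Its promoter, shown because it was the 1 member with this course, held none of the E2F words.
KMT5C, chr19:55339676-55339895, plus strand: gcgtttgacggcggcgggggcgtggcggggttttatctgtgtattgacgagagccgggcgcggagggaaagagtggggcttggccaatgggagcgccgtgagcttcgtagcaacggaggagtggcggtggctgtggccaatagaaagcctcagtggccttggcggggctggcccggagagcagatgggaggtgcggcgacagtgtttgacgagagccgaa
KMT5B, the enzyme of the same family that makes the dimethylated form, did not follow it, at 1292, 1238 and 1637 in prelamin A + FTI, prelamin A + ZMPSTE24 and prelamin A cells, 1161 and 1081 in progerin + FTI and progerin cells, and 1184 and 1475 in the controls.

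Counted against the controls, few members were called. In prelamin A cells 2 were called, KMT5C and UHRF1, both lower, against 10.3% of all genes, and in progerin cells 2, KMT5C lower and HMGA1 higher, against 5.80%. The median difference from control over the 38 was -0.17 in prelamin A cells (all genes -0.02) and 0.06 in progerin cells (all genes 0.01). The prelamin A array was below both controls for 19 members, 50% against 38.8% of all genes, and above both for 8 (21.1% against 35.4%). With FTI the prelamin A line was below both controls for 19 members (all genes 38.4%) and above for 4 (34.5%), and with ZMPSTE24 below for 17 (39.6%) and above for 7 (32.8%). All 3 prelamin A-line arrays were below both controls for 12 members (31.6%, all genes 22.7%): SUV39H1, SETDB1, CBX5, TRIM28, DNMT1, UHRF1, MBD2, EZH2, HDAC3, CHD3, DAXX and BANF1. They were above both for 2 (5.26%, all genes 19.5%), RBBP4 and ATRX. For RBBP4 in prelamin A cells against control, the second brightest probe set kept the sign (0.11). Its dimmer probe sets gave -0.38 to -0.26, so its side of the controls was not settled. In the progerin line the untreated array was above both controls for 12 members (all genes 34.1%) and below for 8 (33.8%), and the FTI array above for 11 (31.7%) and below for 6 (34.5%). Both progerin-line arrays were above both controls for 9 members (23.7%, all genes 24.3%) and below for 4 (10.5%, all genes 24.9%).

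Across all 5 transduced arrays 4 members lay outside both controls, 10.5% against 24.2% of all genes. The 3 lower ones (all genes 12.3%) were CBX5, MBD2 and HDAC3, and the 1 higher (all genes 11.9%) was ATRX. CBX5, which encodes HP1α, read 3269, 3539 and 2537 in prelamin A + FTI, prelamin A + ZMPSTE24 and prelamin A cells and 3851 and 3403 in progerin + FTI and progerin cells, against 4108 and 4082 in the controls. The controls agreed closely and the prelamin A array was the lowest, 0.69 below them on the log2 scale (standard error 0.32), which was not called. Every kept probe set of CBX5 was below the control mean in prelamin A cells. In progerin cells the dimmer ones went both ways, from -0.56 to 0.34, against -0.27 on the one used, so that side was not settled. MBD2, a reader of methylated DNA, read 4409, 5349.8 and 3999 on those prelamin A-line arrays and 5039 and 5536 on the progerin-line arrays, against 6145 and 6191 in the controls. HDAC3, the deacetylase of the NCoR and SMRT corepressors, read 1267, 1269 and 1296 on the prelamin A-line arrays and 1371 and 1313 on the progerin-line arrays, against 1434 and 1524 in the controls, the smallest range of any member. ATRX, the chromatin remodeller that works with DAXX, read 2742, 2124 and 2912 on the prelamin A-line arrays and 2264 and 2351 on the progerin-line arrays, against 2054 and 1729 in the controls. For its partner DAXX, the difference between prelamin A and control was -0.74 on the probe set used and 0.00 on the other, so its side of the controls was not settled.

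The other HP1 genes overlapped the controls. CBX1 (HP1β) read 5786, 5724 and 4969 in prelamin A + FTI, prelamin A + ZMPSTE24 and prelamin A cells and 5863 and 6121 in progerin + FTI and progerin cells, against 6976 and 5558 in the controls. CBX3 (HP1γ) read 10602, 9527 and 10373 on the prelamin A-line arrays and 11389 and 9099.6 on the progerin-line arrays, against 12705 and 10184 in the controls. CBX1 was lowest in prelamin A cells and CBX3 in progerin cells, and neither was called. TRIM28, the corepressor that zinc finger proteins use to bring SETDB1 to their targets, read 1121 to 1179 on the prelamin A-line arrays and 2180.0 and 2332 on the progerin-line arrays, with 1403 and 2369 in the controls. The lines did not overlap, but control 2 was as high as the progerin line.

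Among the H3K9 methyltransferases none was called in any comparison at the pseudocount of 16. SUV39H1, which makes H3K9 trimethylation at pericentric repeats, read 105, 86.9 and 86.0 in prelamin A + FTI, prelamin A + ZMPSTE24 and prelamin A cells and 145 and 185 in progerin + FTI and progerin cells, against 137 and 142 in the controls. It was lower in the prelamin A line than on any other array. Its difference of -0.98 between prelamin A and progerin (standard error 0.37), a fold of 1.97, was not called. SUV39H1 is dim and rests on 1 kept probe set, with a suffix for possible cross-hybridisation. With a pseudocount of 1, SUV39H1 and KMT5C were called as well, 7 members in place of 5. EHMT2, the main enzyme of H3K9 dimethylation, read 324 to 421 on the prelamin A-line arrays and 555 and 655 on the progerin-line arrays, with 299 and 579 in the controls. SETDB1 read 261 to 279 on the prelamin A-line arrays and 322 and 436 on the progerin-line arrays, with 333 and 548 in the controls. For both genes the controls were further apart than the nearest arrays of the 2 lines. SUV39H2 read 459 to 615 on the 5 transduced arrays with 926 and 504 in the controls, and SETDB2 read 309 to 400.5 with 344 and 263 in the controls. EHMT1, the partner of EHMT2, read 996, 748 and 951 on the prelamin A-line arrays and 998 and 897 on the progerin-line arrays, against 943 and 1004 in the controls, and was among the steadiest members.

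Of the other PRC2 genes, RBBP7 alone was also lower on all 3 prelamin A-line arrays than on both progerin-line arrays. EZH1, the methyltransferase subunit of resting cells, read 1106, 1142 and 1291 in prelamin A + FTI, prelamin A + ZMPSTE24 and prelamin A cells and 1343 and 1256 in progerin + FTI and progerin cells, against 970.0 and 1161 in the controls. EED, which binds the finished H3K27 mark, read 1835, 2319 and 1832 on the prelamin A-line arrays and 2255 and 2078 on the progerin-line arrays, against 2054 and 1987 in the controls. SUZ12, a scaffold subunit, read 2794, 3913 and 3077 on the prelamin A-line arrays and 2966 and 2870.0 on the progerin-line arrays, against 3297 and 2265 in the controls, with the ZMPSTE24 array highest. RBBP4, a histone binding subunit also found in NuRD, read 1728, 1708 and 1643 on the prelamin A-line arrays and 1536 and 1426 on the progerin-line arrays, against 1568 and 1339 in the controls. Its close relative RBBP7 read 5268 to 5513 on the prelamin A-line arrays and 6829 and 6098 on the progerin-line arrays, with 6466 and 5021 in the controls. Of the 6 PRC2 members, EZH2 between the lines was the only one called in any comparison.

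The deacetylases and NuRD subunits had no call in any comparison. HDAC1, a catalytic subunit of NuRD, read 2886, 3006 and 3055 on the prelamin A-line arrays and 3227 and 3200.1 on the progerin-line arrays, against 2710.2 and 3464 in the controls. HDAC2, its close copy, read 2071 to 2669 on the prelamin A-line arrays and 2808 and 3431 on the progerin-line arrays, with 1921 and 3181 in the controls. CHD3 read 549 to 632 on the prelamin A-line arrays and 902 and 845 on the progerin-line arrays, with 782 and 1059 in the controls. CHD4, the main NuRD remodeller, read 632, 486 and 914 on the prelamin A-line arrays, where both treated arrays were the lowest of the 7, and 863 and 919.6 on the progerin-line arrays, with 692 and 1034 in the controls. Against prelamin A cells this probe set gave -0.52 with FTI and -0.89 with ZMPSTE24. The other kept probe sets of CHD4 gave -0.20 and -0.21 with FTI and -0.08 and -0.12 with ZMPSTE24. MTA1 read 675 to 811 on the prelamin A-line arrays and 882 and 897 on the progerin-line arrays, with 796 and 1004 in the controls. SIRT1 read 858 to 1136 and SIRT6 249 to 331 on the 5 transduced arrays, with 1049 and 707 for SIRT1 in the controls. MBD1 read 1634 to 2384 on the transduced arrays and 1709 and 2124 in the controls, and DNMT3B, a de novo DNA methyltransferase, read 171 to 253 with 238 and 132 in the controls.

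The treatments called 1 member at most. With FTI in progerin cells KMT5C was called higher, against 1.45% of all genes, and with ZMPSTE24 in prelamin A cells KMT5C again, against 5.04%. With FTI in prelamin A cells 0 members were called, against 2.81% of all genes, and 0 members had an unadjusted p under 0.05 in limma. The largest difference there was KMT5C at 0.98 (95% interval -0.01 to 1.96). For UHRF1 in prelamin A cells the difference was 0.84 with ZMPSTE24 (95% interval -0.17 to 1.85) and -0.14 with FTI. For HELLS it was 1.11 with ZMPSTE24 and -0.21 with FTI, and none of these was called.

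The 2 untreated lamin arrays, the 3 treated arrays and the 2 controls were also pooled as 3 states. This gave 4 residual degrees of freedom in place of 1, and no member passed. The pooled spread includes differences between the 2 lines and among the 3 treated arrays. These are not replicates of 1 condition, so the pooled p-values do not measure replicate spread alone. Of all genes 0.558% had an adjusted p under 0.05 in limma between lamin and control, 0% between treated and lamin, and 1.08% between treated and control. At an unadjusted p under 0.05 there was 1 member between lamin and control (all genes 11.3%), 2 between treated and lamin (all genes 1.99%) and 1 between treated and control (all genes 14.4%). KMT5C was -1.71 between lamin and control (standard error 0.31, limma adjusted p = 0.100) and 1.65 between treated and lamin (standard error 0.28, limma adjusted p = 1.00). DNMT3A, a de novo DNA methyltransferase, read 241, 252 and 364 in prelamin A + FTI, prelamin A + ZMPSTE24 and prelamin A cells and 276 and 388 in progerin + FTI and progerin cells, against 329 and 431 in the controls. All 3 treated arrays were below the other 4, at -0.52 against the lamin arrays (standard error 0.18, limma adjusted p = 1.00) and -0.53 against the controls (standard error 0.18, limma adjusted p = 0.269). Its second probe set did not share this, and with both averaged the difference from the lamin arrays was -0.16.

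Genes that work with these 38 are given here as context, from lists chosen by name, and their calls stand against the all-gene shares given above for the same comparisons. Of 15 Polycomb repressive complex 1 genes tested, RYBP, a subunit of its variant forms, was the 1 called against control, 1.40 higher in prelamin A cells (5381 in prelamin A cells, against 2502 and 1639 in the controls). No gene was called in any comparison of single arrays among 9 further NuRD and SIN3 subunits or among 9 genes of the HUSH complex and zinc finger silencing. Of 10 histone demethylases of silent marks, KDM7A was called lower with ZMPSTE24 (-1.61) and PHF8 lower with FTI (-1.10), both in prelamin A cells. Of 4 DNA demethylation genes, TET1, which oxidises methylcytosine, was the 1 called in progerin cells (all genes 5.80%), at -1.31, with a reading of 81.6 in progerin cells against 308 and 165 in the controls. Of 8 histone chaperones, CHAF1A, the large subunit of the replication-coupled chaperone CAF-1, at -1.38 and ASF1B at -1.39 were called lower in prelamin A than in progerin cells. ASF1B was also called lower than control in prelamin A cells (-1.08) and higher with ZMPSTE24 (1.04). Of 8 linker and variant histone genes, H1-2, a linker histone, was called higher in prelamin A cells, by 2.85 against control and by 2.66 against progerin, with 6455 in prelamin A cells, 1009.3 in progerin cells and 1494 and 518 in the controls. The controls lay far apart. H2AX was called lower against progerin (-1.47). Of 5 accessory PRC2 genes tested, PHF19 was called lower in prelamin A cells against progerin (-1.39), as EZH2 was. It was the only 1 of the 5 below 0 there, and their median was 0.17. Of 8 genes that anchor chromatin to the nuclear envelope, LMNB1 (lamin B1) was called at -1.44 against control and -1.23 against progerin, and LMNB2 at -1.33 against progerin. LMNB1 read 108, 101 and 84.0 in prelamin A + FTI, prelamin A + ZMPSTE24 and prelamin A cells and 219 and 218 in progerin + FTI and progerin cells, against 234 and 279 in the controls.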

How the data were processed

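The 7 RNA samples were run on Affymetrix Human Genome U133 Plus 2.0 arrays. The authors deposited MAS5 signals (version not given), a linear intensity already corrected for background and scaled. Every array has a trimmed mean of about 500, which differs from the target level in the methods, so only relative levels are used. The methods' S-score test needs probe-level data and was not repeated.

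Of 54675 probe sets, 41091 carry 1 gene in the platform table and 41037 of these matched RefSeq (GRCh38.p14). Probe sets never reaching a signal of 100 were dropped, and the brightest one represented each of 12726 genes. The members had 104 probe sets, 83 of them kept. On 1 of these rest 17 members, and 23 members are read by a probe set whose suffix marks possible cross-hybridisation. Values were log2(signal + 16), a scale that understates changes of dim genes. Models used limma 3.58.1 (R 4.3.3, matrixStats 1.5.0) with Benjamini-Hochberg adjustment over all genes. The 6-condition model had 1 residual and 3.50 prior degrees of freedom, so it takes the spread of the controls for every single array, and the 3-state model had 4 and 2.60. Both were tested on simulated data. The number of arrays limits the precision.

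Members, lists, tests and alternatives were chosen with earlier results of these data known. Every member is named; all arrays are given for called members, HP1 and core PRC2 genes, members outside both controls, the 5 steadiest and those with an unadjusted p under 0.05 in the pooled model. The alternatives varied normalization, centring, pseudocount (1 and 64), filter, probe set summary, variance trend, thresholds, line as a block and the arrays left out.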

Additional observations from a re-analysis of the deposited data

Results flagged for a closer look

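The comparison of the prelamin A array with the progerin array is a test of whether the 2 lines differ in their change from the shared controls, and 5 members passed its unadjusted threshold. On the log2 scale the difference was -2.09 for HMGA1, -1.76 for UHRF1, -1.53 for DAXX, -1.15 for EZH2 and -1.10 for DNMT1, and in limma none had an adjusted p under 0.618. The change with FTI differed between the prelamin A and the progerin line for HMGA1, by 1.49, with a limma adjusted p of 1.00.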

How the results depend on the processing

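The alternatives were run for 16 results of 6 called members and DNMT3A, and none of these turned its direction. Of their tested values, 144 kept their side of the threshold and 15 lost it, while 8 without a control array had no test. Those lost include DAXX between prelamin A and progerin with probe sets averaged (-0.84) and DNMT1 there with no filter (limma unadjusted p = 0.0502). For prelamin A against control, 2 called members became 1 (UHRF1) with a pseudocount of 64, an intensity trend or p under 0.01. For FTI in prelamin A cells, 0 became 1 with quantile normalization, median centring or a pseudocount of 1 (KMT5C) and with probe sets averaged (HMGA1). For ZMPSTE24, 1 became 0 with an intensity trend or p under 0.01, and between prelamin A and progerin 5 became 2 (UHRF1, HMGA1) at p under 0.01. For the difference between FTI effects, 1 became 2 with a pseudocount of 1 and 0 with no filter on dim probe sets or at p under 0.01. In the pooled model 0, 0 and 0 became 1, 2 and 1 at an unadjusted p, and stayed at 0 to 0 when any array was left out. Members outside both controls went from 4 to 7 with probe sets averaged (CBX3, DNMT3A and MTA1 added). DNMT3A between treated and lamin no longer had an unadjusted p under 0.05 in limma without the prelamin A + FTI (-0.48), prelamin A + ZMPSTE24 (-0.52), prelamin A (-0.57) or progerin array (-0.48), nor between treated and control without control 2 (-0.34) or without either treated prelamin A array. The other 116 counts stayed within 1.5 times.

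With no filter, calls over all genes were 1238 in place of 738 for progerin and 600 in place of 185 for FTI in progerin cells. At an adjusted p under 0.05 in the pooled model, 71 genes between lamin and control became 0 without the prelamin A array, and 138 between treated and control became 9 without control 2. The cause of these shifts was not tested. With line as a block, 0 members passed in the pooled model between lamin and control (137 genes in place of 71) and between treated and lamin (0 genes). Within a line no paired test was possible, because each lamin condition had 1 array. In the pooled model the line block was the only account taken of the pairing of treated with untreated arrays. Directions of members outside these 16 results can turn with the probe set: CHD3 in prelamin A against control was -0.52 on the one used and 0.72 on the other. Members with 1 probe set, KMT5C above all, have no second reading.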
